A study of Mus musculus with 8 samples.

Results

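Osmolyte and cell volume genes are described here in mouse quadriceps that lacked Gpcpd1 in muscle. The set held 8 named genes out of the 54532 genes in each count table: the water channels Aqp1 and Aqp4, the organic osmolyte carriers Slc6a6 and Slc5a3, the sorbitol-making enzyme Akr1b3, the ion cotransporter Slc12a2, the anion channel subunit Lrrc8a and the transcription factor Nfat5. They were chosen by symbol, for their roles in water, osmolyte and ion movement, with earlier results of these data known. All 8 passed the filter on low counts. Knockout mice (4 libraries, MckCre-Gpcpd1 in the labels) carried 2 floxed Gpcpd1 alleles and the Mck-Cre transgene, and control mice (4 libraries) carried the same floxed alleles without Cre. All mice were 3 months old and on chow diet, and RNA was sequenced from near the 3′ end of polyadenylated transcripts (QuantSeq FWD). Mck is the muscle creatine kinase promoter, which drives Cre in differentiated striated muscle, so vessels, blood, nerve and connective tissue in the same quadriceps sample were not targeted. Because controls lacked the transgene, the presence of Cre and the loss of Gpcpd1 cannot be told apart.

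Gpcpd1 splits glycerophosphocholine into glycerol phosphate and choline. Glycerophosphocholine belongs to the organic osmolytes, small solutes that cells hold to balance the tonicity around them, together with taurine, betaine, myo-inositol and sorbitol. In kidney medulla, where these solutes are best studied, NFAT5 (also called TonEBP) turns on the genes for their carriers and for aldose reductase when tonicity rises. A swollen cell loses osmolytes and chloride through channels built on LRRC8A, and a shrunken cell takes up sodium, potassium and chloride through NKCC1, the product of Slc12a2. In skeletal muscle, aquaporin-4 lies in the membrane of fast fibres and aquaporin-1 mainly in the endothelium of capillaries.

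The libraries held 4404116 to 5405999 reads, and a floor of 3 reads, which covers counting error only, came to between 0.557 and 0.646 CPM (library-size-scaled reads, here after TMM scaling). Gpcpd1 itself had 30.4, 35.7, 35.9 and 38.6 CPM in knockouts 1 to 4, against 158.5, 156.3, 134.7 and 149.4 CPM in controls 1 to 4. Its log2 fold change was -2.09 (SE 0.10, edgeR adjusted p = 2.1e-13), although the reads counted near the 3′ end may come from exons that Cre left in place. The tissue label was borne out as to skeletal muscle, though not as to which muscle. The 10 fibre genes listed, such as Ckm and Acta1, summed to 234305 to 256916 CPM in knockouts and 214068 to 258991 CPM in controls. The labels do not say that each library came from a separate mouse, nor give sex or batch, so the error behind each p-value is that between libraries and may in part be technical.

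Of the 8 genes, 3 passed the test at an adjusted p of 0.05: Aqp4 was higher in the knockout, and Slc6a6 and Slc12a2 were lower. Over all 10691 tested genes 15.7% were called, 8.87% higher and 6.80% lower. The median log2 fold change of the 8 genes was -0.11, against 0.008 over all tested genes, and 3 of the 8 were above 0. Aqp1, Aqp4 and Slc12a2 had knockout and control ranges that did not overlap, the first and last lower and Aqp4 higher. Ranges did not overlap for 19.2% of all tested genes, 10.3% higher and 8.92% lower.

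**Figure D1:**
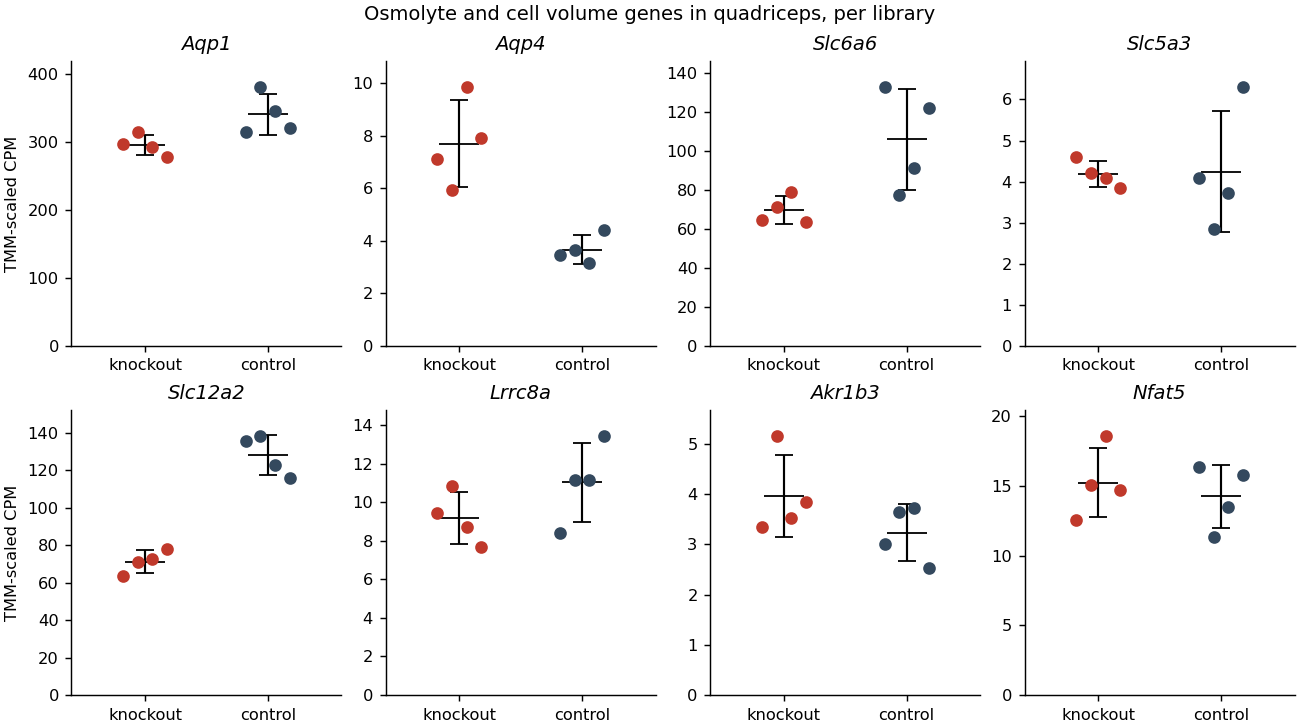
TMM-scaled CPM of the 8 genes in each library (y axis, 1 panel per gene with its own scale from 0), with 4 knockout libraries in red and 4 control libraries in dark blue. Points run from library 1 at the left to 4 at the right in each group, and bars give mean ± SD. The groups stand apart for Aqp4, Slc12a2 and Aqp1, and they overlap for the other 5 genes.

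**Figure D2:**
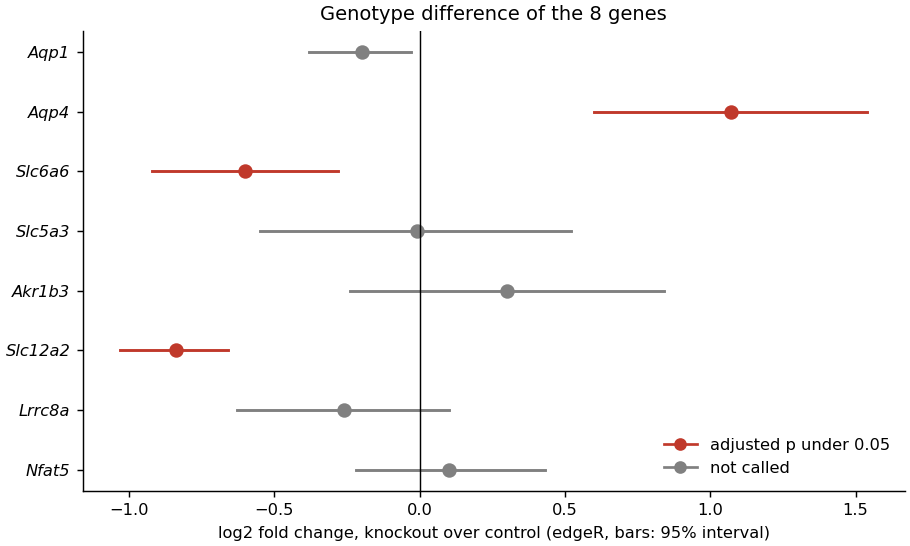
edgeR log2 fold change of knockout over control (x axis) for each of the 8 genes (y axis), with 95% intervals. Aqp4 (1.07), Slc6a6 (-0.60) and Slc12a2 (-0.84), in red, had an adjusted p under 0.05, and the 5 others, in grey, did not.

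Promoter sequence from the RefSeq table (GRCm38.p6) was searched, and results are given for 4 of the 8 genes, Aqp1, Slc5a3, Lrrc8a and Nfat5. The windows ran from 250 bases before to 50 bases after the gene start. No result is reported here for the remaining genes, all 3 called genes among them, so the matches below say nothing about those. The windows of Aqp1 (chr6:55336049-55336348, plus strand) and Slc5a3 (chr16:92058072-92058371, plus strand) are shown because they differ in the tonicity-responsive element (TonE), the site that NFAT5 binds. Lower case is the window from 5′ to 3′, and capitals mark the match to the TonE consensus, searched on both strands.
Aqp1: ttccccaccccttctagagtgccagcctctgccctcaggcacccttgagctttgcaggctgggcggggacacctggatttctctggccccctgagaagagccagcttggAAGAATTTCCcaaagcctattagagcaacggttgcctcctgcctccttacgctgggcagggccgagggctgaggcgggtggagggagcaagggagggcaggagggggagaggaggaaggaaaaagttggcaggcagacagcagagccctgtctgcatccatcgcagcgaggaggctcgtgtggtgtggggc
Slc5a3: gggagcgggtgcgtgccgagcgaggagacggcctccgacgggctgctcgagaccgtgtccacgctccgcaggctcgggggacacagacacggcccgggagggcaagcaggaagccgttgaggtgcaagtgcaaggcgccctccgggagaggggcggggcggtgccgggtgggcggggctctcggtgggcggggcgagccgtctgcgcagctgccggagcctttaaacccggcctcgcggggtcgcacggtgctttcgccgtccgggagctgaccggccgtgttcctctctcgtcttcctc
The Aqp1 window held 1 match, on the minus strand, whose first base within the window lay 141 bases before the RefSeq gene start. The Slc5a3 window held none, and neither did those of Lrrc8a and Nfat5. Of all 32851 windows listed there, 17.4% held a match, so a match describes the letters and not binding, and a missing match covers these 300 bases only. The window of Aqp1 had 62.7% G and C bases and 8 CpG pairs, and that of Slc5a3 had 73.3% and 38. Neither Aqp1 nor Slc5a3 was called.

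Aqp4 (ENSMUSG00000024411, GRCm38 chromosome 18, 15389496 to 15410982, minus strand) encodes the orthogonal-array water channel of the fast fibre membrane. It had 34, 31, 53 and 37 reads in knockouts 1 to 4, against 16, 18, 16 and 21 reads in controls 1 to 4, which correspond to 7.12, 5.92, 9.85 and 7.89 CPM against 3.45, 3.65, 3.13 and 4.41 CPM. Every knockout library lay above every control library, and knockout 3 was the highest. Aqp4 averaged 7.70 ± 1.65 CPM in knockouts and 3.66 ± 0.545 CPM in controls (SD, n = 4 each), a fold of 2.10. The log2 fold change was 1.07 (SE 0.23, 95% interval 0.60 to 1.54, edgeR adjusted p = 0.0018), and at these low counts the size is known less well than the direction.

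Fast fibre myosin genes were measured beside it. The summed level of Myh1, Myh2 and Myh4 ran from 38710 to 44025 CPM in knockouts and from 46997 to 51629 CPM in controls, without overlap, and most of it was Myh4. Of the 3 genes 1 was called by edgeR and by limma and 2 by DESeq2, and 3 had an unadjusted p under 0.05 in edgeR. Myh4, the myosin of the fastest fibres, was lower (log2 fold change -0.31, SE 0.09, edgeR adjusted p = 0.0128), while Myh1 (0.67, SE 0.24) and Myh2 (1.46, SE 0.41) were not called by edgeR. Myh2 ran from 540.9 to 1394 CPM in knockouts and from 213.0 to 535.7 CPM in controls, without overlap. Of the 6 slow fibre genes 4 had too few reads to test, the slow myosin gene Myh7 among them at 17, 2, 2 and 2 reads in knockouts and 0, 7, 1 and 16 reads in controls. Of the 2 others 0 were called by edgeR, DESeq2 or limma and 0 had an unadjusted p under 0.05, with Tnnt1 at a log2 fold change of 1.09 (SE 0.89) and Atp2a2 at -0.14 (SE 0.17). Without knockout 1 the value of Tnnt1 was 0.19, and it ran up to 1.63 without control 2. The part of fibre type in the Aqp4 level was not tested. In whole muscle, more or fewer cells of a type and more or less RNA per cell cannot be told apart.

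Aqp1 (ENSMUSG00000004655, GRCm38 chromosome 6, 55336432 to 55348555, plus strand) encodes the water channel of endothelium and red cells. It had 297.5, 314.9, 293.6 and 278.0 CPM in knockouts 1 to 4, against 315.5, 381.3, 346.0 and 320.5 CPM in controls 1 to 4. The ranges came within a fraction of 1 CPM of each other, between knockout 2 and control 1, without overlapping. The means were 296.0 ± 15.2 CPM in knockouts and 340.8 ± 30.1 CPM in controls (SD, n = 4 each), and the log2 fold change of -0.20 (SE 0.08, 95% interval -0.38 to -0.03) had an edgeR adjusted p of 0.108. It passed the threshold with library totals only (-0.24, adjusted p = 0.0265) and with 1 surrogate variable (-0.21, adjusted p = 0.0302).

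Markers of the cells that carry Aqp1 were measured in the same libraries. Of 12 endothelial markers 0 were called by edgeR, DESeq2 or limma, 1 had an unadjusted p under 0.05, and 4 were above 0, with a median log2 fold change of -0.04, and their sum ran from 636.5 to 732.1 CPM in knockouts and from 683.4 to 779.8 CPM in controls. Egfl7 (log2 fold change -0.22, SE 0.10) and Cldn5 (-0.38, SE 0.19) had the lowest p of that list. Egfl7 passed the threshold without control 1 (adjusted p = 0.0389 by edgeR), and Cldn5 without control 2 (0.0322) and with no low-count filter (0.0301), all lower in the knockout. Of 5 erythroid markers 0 were called by any of these tools, 0 had an unadjusted p under 0.05, and 0 were above 0, with a median of -0.16, Hbb-bs at -0.18 (SE 0.12) and Hbb-bt at -0.22 (SE 0.16). Hbb-bt passed the threshold, lower in the knockout, without knockout 2 (edgeR adjusted p = 0.0120). The erythroid sum ran from 535.4 to 867.9 CPM in knockouts and from 666.2 to 868.3 CPM in controls. Both sums overlapped between genotypes, no marker was at 0, and their part in the Aqp1 level was not tested.

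**Figure D3:**
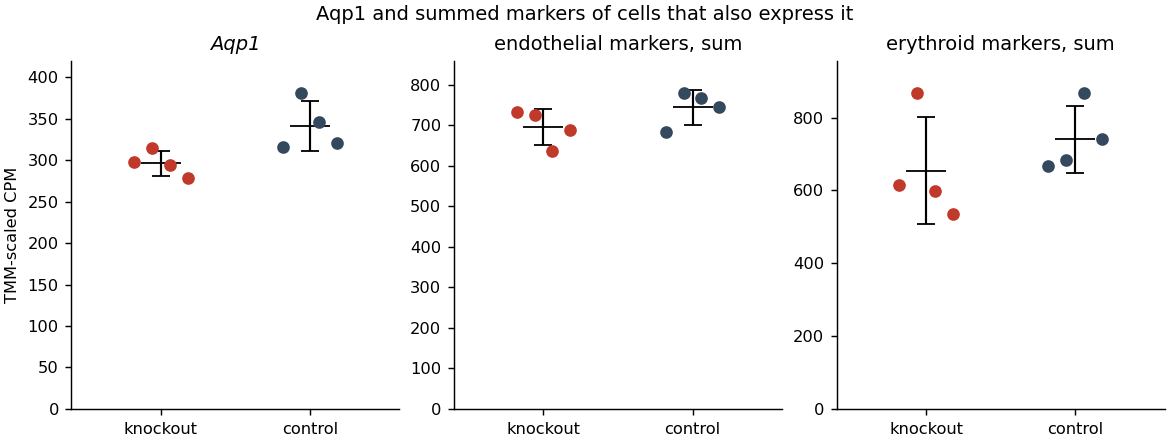
TMM-scaled CPM (y axes from 0) of Aqp1 and of the summed endothelial (12 genes) and erythroid (5 genes) markers in each library, knockout in red and control in dark blue, with mean ± SD. The Aqp1 ranges do not overlap (278.0 to 314.9 CPM in knockouts, 315.5 to 381.3 CPM in controls), and both marker sums do.

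Of the 10 other aquaporin genes only Aqp7, an aquaglyceroporin that carries glycerol as well as water, had enough reads to test. Aqp7 averaged 7.56 ± 1.71 CPM in knockouts and 6.11 ± 1.12 CPM in controls (SD, n = 4 each; log2 fold change 0.30, SE 0.21, not called). Aqp3, Aqp6 and Aqp12 had no read in any library, which allows up to 3 reads in each.

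Aquaporin-4 is held at the fibre membrane by the dystrophin complex, and 11 genes of that complex were tested, of which 1 was higher and 1 lower. That is 18.2% of the 11, close to the 15.7% called over all tested genes. Sntb1, which encodes a beta-syntrophin, had 27, 30, 53 and 22 reads in knockouts 1 to 4, against 7, 2, 5 and 13 reads in controls 1 to 4. All knockout libraries were above all controls for Sntb1, with a log2 fold change of 2.21 (SE 0.37, edgeR adjusted p = 0.00018) whose size is uncertain because control 2 lay below the floor. Sgcb, a sarcoglycan gene, averaged 51.8 ± 3.37 CPM in knockouts and 84.8 ± 3.04 CPM in controls (log2 fold change -0.71, SE 0.09). The median of the 11 genes was -0.01, and Dmd, Utrn, Dtna, Dag1, Sgca, Sgcd and Sntb2 were among those not called.

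Slc6a6 (ENSMUSG00000030096, GRCm38 chromosome 6, 91684053 to 91759066, plus strand) encodes TauT, the sodium-coupled carrier that brings taurine into muscle. It had 64.7, 71.2, 79.0 and 63.8 CPM in knockouts 1 to 4, against 132.9, 77.6, 91.2 and 122.3 CPM in controls 1 to 4. Knockout 3 lay above control 2, so the groups overlapped, and the controls were far more spread (coefficient of variation 24.4%) than the knockouts (10.1%). Slc6a6 averaged 69.7 ± 7.02 CPM in knockouts and 106.0 ± 25.9 CPM in controls (SD, n = 4 each), 65.7% of the control mean. It was lower with a log2 fold change of -0.60 (SE 0.15, 95% interval -0.92 to -0.28, edgeR adjusted p = 0.0130). The call was lost without knockout 1 (adjusted p = 0.0536) and without control 4 (adjusted p = 0.0534), and the adjusted p over all alternatives ran from 3.3e-08 to 0.0536.

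Gm45828, a predicted gene that lies on the same strand inside the Slc6a6 span (GRCm38 chromosome 6, 91709406 to 91711241) and shares no exon base with it, was picked after its values were seen. It had 20, 15, 24 and 19 reads in knockouts 1 to 4, against 26, 38, 27 and 33 reads in controls 1 to 4. Its log2 fold change was -0.71 (SE 0.23, edgeR adjusted p = 0.0362), in the direction of Slc6a6.

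Slc5a3 (ENSMUSG00000089774, GRCm38 chromosome 16, 92058322 to 92087473, plus strand) encodes SMIT1, the sodium-coupled myo-inositol carrier. It had 22, 22, 22 and 18 reads in knockouts 1 to 4, against 19, 14, 19 and 30 reads in controls 1 to 4. The knockouts lay inside the wider range of the controls. The means were 4.18 ± 0.321 CPM in knockouts and 4.24 ± 1.48 CPM in controls (SD, n = 4 each), and the log2 fold change was -0.01 (SE 0.26, 95% interval -0.55 to 0.52, edgeR adjusted p = 0.980). Slc5a3 lies within the Mrps6 gene on the same strand and shares 159 of its 10913 exon bases with it, none of them among the last 500, where 3′ reads arise.

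The list of organic osmolyte carriers held 9 further genes, of which 4 had enough reads to test. Among these 1 was higher and 1 lower (50% called, against 15.7% of all tested genes). Slc16a6, a monocarboxylate transporter family gene whose product has been reported to carry taurine, averaged 27.4 ± 3.53 CPM in knockouts and 10.1 ± 1.58 CPM in controls (SD, n = 4 each). Its log2 fold change was 1.44 (SE 0.15, edgeR adjusted p = 1.7e-07), and all 4 knockouts were above all 4 controls. Slc38a2 encodes SNAT2, an amino acid carrier induced by hypertonic stress in cultured cells. It averaged 52.4 ± 10.6 CPM in knockouts and 84.7 ± 10.6 CPM in controls (log2 fold change -0.69, SE 0.12, edgeR adjusted p = 0.00038). Slc6a8, the creatine carrier gene, had a log2 fold change of -0.22 (SE 0.08, not called), and Slc36a1 one of -0.35 (SE 0.19, not called). Slc6a12, the betaine carrier gene of kidney medulla, had 2 reads in all in each genotype, and the second myo-inositol carrier gene Slc5a11 had no read.

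Akr1b3 (ENSMUSG00000001642, GRCm38 chromosome 6, 34302434 to 34317478, minus strand) encodes aldose reductase, which makes sorbitol from glucose. It had 16, 27, 19 and 18 reads in knockouts 1 to 4, against 14, 18, 19 and 12 reads in controls 1 to 4. The groups overlapped, and knockout 2 was the highest library. The means were 3.97 ± 0.816 CPM in knockouts and 3.23 ± 0.566 CPM in controls (SD, n = 4 each), with a log2 fold change of 0.30 (SE 0.26, 95% interval -0.24 to 0.84, edgeR adjusted p = 0.501). The gene has close relatives in the same family, and how the authors treated reads that fit several places is not given in the sources used here, so the count is uncertain.

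Among 21 other genes of osmolyte synthesis and breakdown, Gpcpd1 left out, 15 were tested. Of these 1 was higher and 1 lower (13.3% called, against 15.7% of all tested genes). Akr1b10, an aldo-keto reductase of the Akr1b3 family, averaged 28.5 ± 1.92 CPM in knockouts and 19.2 ± 3.25 CPM in controls (SD, n = 4 each; log2 fold change 0.57, SE 0.13, edgeR adjusted p = 0.0031). Ado, a thiol dioxygenase that turns cysteamine into the taurine precursor hypotaurine, averaged 24.0 ± 1.63 CPM in knockouts and 32.9 ± 2.91 CPM in controls (log2 fold change -0.46, SE 0.11, edgeR adjusted p = 0.0065). The other tested taurine synthesis genes were not called: Cdo1 stood at -0.13 (SE 0.23), Csad at 0.31 (SE 0.12) and Gadl1 at 0.62 (SE 0.26) on the log2 fold change scale. Csad and Gadl1 had an unadjusted p under 0.05 in edgeR, and Cdo1 did not. Csad ran from 29.6 to 42.52 CPM in knockouts and from 26.35 to 28.65 CPM in controls, without overlap. Sord, which oxidizes sorbitol to fructose, had a log2 fold change of 0.16 (SE 0.10, not called). None of the tested genes that make glycerophosphocholine (Pnpla6, Pnpla7) or belong to the family of glycerophosphodiesterases (Gde1, Gdpd1, Gdpd5) was called.

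Slc12a2 (ENSMUSG00000024597, GRCm38 chromosome 18, 57878678 to 57946821, plus strand) encodes NKCC1, which carries sodium, potassium and chloride into the cell together. It had 63.7, 71.0, 72.5 and 78.1 CPM in knockouts 1 to 4, against 135.5, 138.4, 122.8 and 115.8 CPM in controls 1 to 4. The groups lay far apart, and the coefficient of variation was 8.31% in knockouts and 8.32% in controls. Slc12a2 averaged 71.3 ± 5.93 CPM in knockouts and 128.1 ± 10.7 CPM in controls (SD, n = 4 each), 55.7% of the control mean. The log2 fold change was -0.84 (SE 0.09, 95% interval -1.03 to -0.66, edgeR adjusted p = 4.1e-07), and it ran from -0.90 to -0.80 over 17 alternatives, in each of which it was called.

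The list of other cation-chloride cotransporters and of the kinases that switch them held 13 tested genes, of which 1 was higher and 2 lower. That is 23.1% called, against 15.7% of all tested genes, and the median log2 fold change was -0.17. Slc12a4, the KCC1 gene, whose product carries potassium and chloride out of the cell, averaged 15.3 ± 3.29 CPM in knockouts and 10.5 ± 1.87 CPM in controls (SD, n = 4 each; log2 fold change 0.54, SE 0.18, edgeR adjusted p = 0.0356). Wnk3, a kinase that turns NKCC1 on, had 5, 3, 8 and 6 reads in knockouts 1 to 4, against 11, 12, 12 and 16 reads in controls 1 to 4, so that knockout 2 stood at the floor (log2 fold change -1.24, SE 0.37, edgeR adjusted p = 0.0217). Cul3, the scaffold of the ubiquitin ligase that degrades WNK kinases, averaged 133.3 ± 8.22 CPM in knockouts and 165.7 ± 9.87 CPM in controls (log2 fold change -0.31, SE 0.08). The calls of Slc12a4 and Wnk3 were lost in 6 and 3 alternatives, with adjusted p up to 0.145 and 0.0897. Wnk1 (-0.20, SE 0.08), Oxsr1 (-0.24, SE 0.19) and Stk39 (0.63, SE 0.39), the kinases of the same cascade, were not called. Wnk1 ran from 484.2 to 522.4 CPM in knockouts and from 547.7 to 598.2 CPM in controls, without overlap. Of the 13 tested genes 6, Wnk1 among them, had an unadjusted p under 0.05 in edgeR, and Oxsr1 and Stk39 did not.

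The sodium pump makes the sodium gradient that NKCC1, TauT and SMIT1 use. Of 11 tested genes in the list of the pump and of proton exchange 4 were higher and 2 lower. That is 54.55% called, against 15.7% of all tested genes, and the median log2 fold change was 0.16. Atp1b2 averaged 152.6 ± 7.81 CPM in knockouts and 96.2 ± 5.58 CPM in controls (SD, n = 4 each; log2 fold change 0.67, SE 0.08, edgeR adjusted p = 3.7e-06), and Atp1b1 had a log2 fold change of 0.68 (SE 0.13, edgeR adjusted p = 0.0016). Both encode beta subunits, which bring the pump to the membrane. Atp1b4 averaged 44.9 ± 4.42 CPM in knockouts and 15.1 ± 3.19 CPM in controls (log2 fold change 1.57, SE 0.13, edgeR adjusted p = 1.2e-08). In placental mammals the Atp1b4 protein lies in the nuclear envelope of muscle and is no pump subunit, in spite of its name.

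The pump regulator gene Fxyd1 was higher (log2 fold change 0.29, SE 0.09, edgeR adjusted p = 0.0234), and the beta subunit gene Atp1b3 was lower (-0.42, SE 0.14, edgeR adjusted p = 0.0434). The calls of Fxyd1 and Atp1b3 were lost in 5 and 7 alternatives, with adjusted p up to 0.0970 and 0.136.

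**Figure D4:**
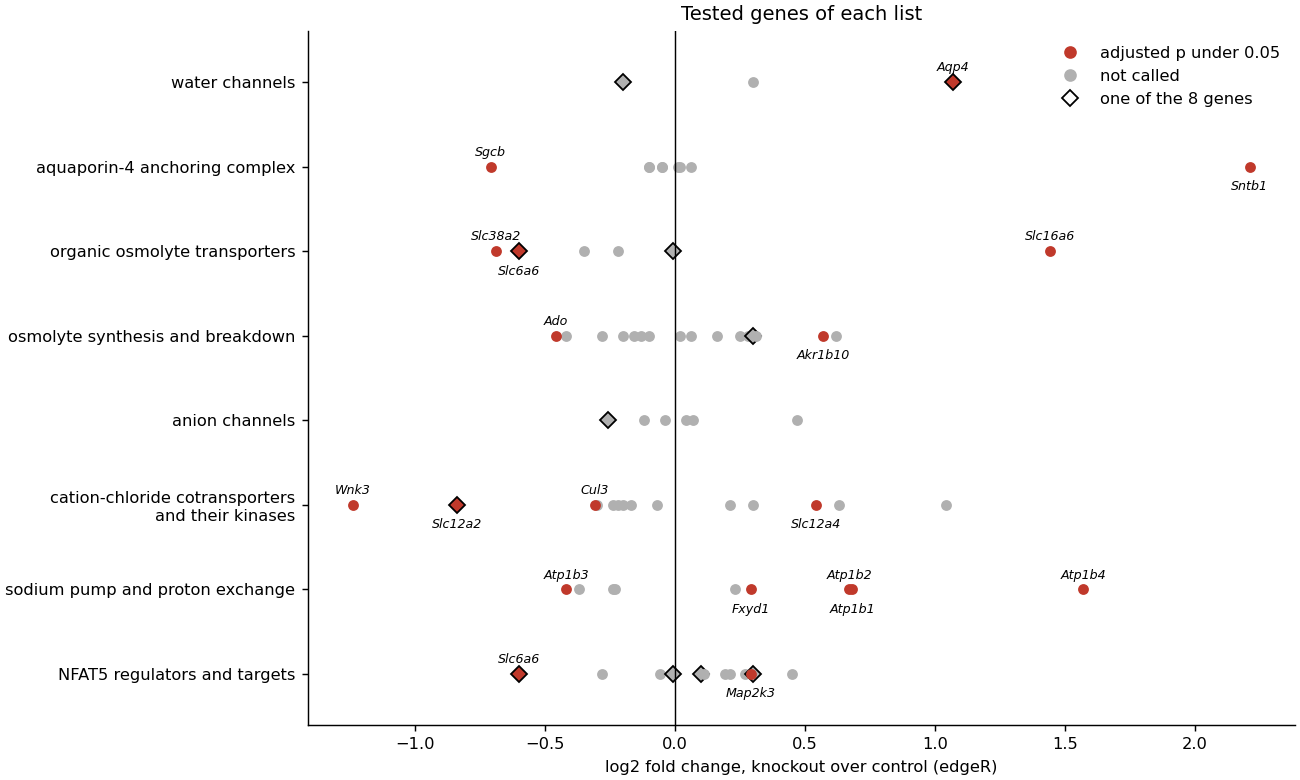
edgeR log2 fold change of knockout over control (x axis) for tested genes of the 8 lists (y axis), with Gpcpd1 and 4 other genes left out. Red points had an adjusted p under 0.05, grey points did not, and diamonds are the 8 genes described here. A gene that belongs to several lists is drawn in each. Red points stand on both sides of 0, and the anion channel list holds grey points only, Lrrc8a among them.

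**Figure D5:**
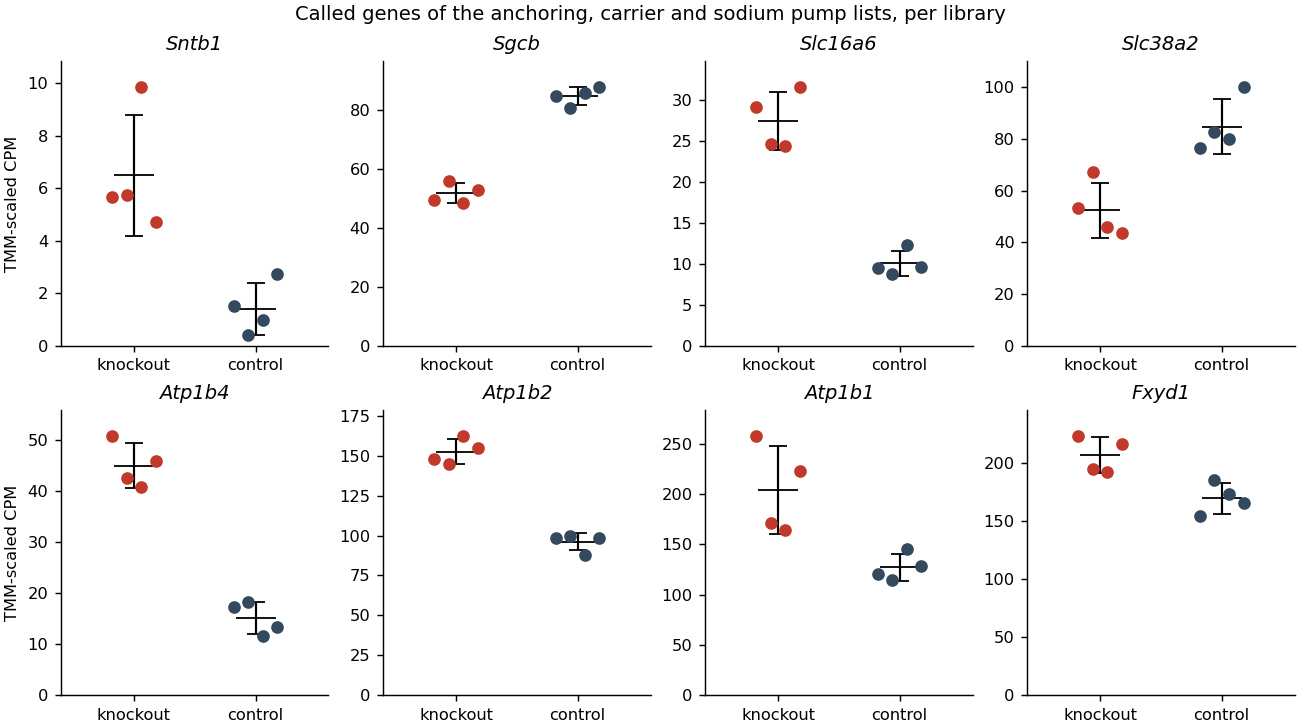
TMM-scaled CPM (y axis, from 0) in each library for 8 called genes of the anchoring, carrier and sodium pump lists, knockout in red and control in dark blue, with mean ± SD. Sntb1, Slc16a6, Atp1b4, Atp1b2, Atp1b1 and Fxyd1 were higher in all knockout libraries than in any control, and Sgcb and Slc38a2 were lower.

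Lrrc8a (ENSMUSG00000007476, GRCm38 chromosome 2, 30237715 to 30263790, plus strand) encodes the subunit that every volume-regulated anion channel needs, the pore through which chloride and taurine leave a swollen cell. It had 45, 57, 47 and 36 reads in knockouts 1 to 4, against 39, 55, 57 and 64 reads in controls 1 to 4. The groups overlapped, with control 1 below 3 of the knockouts and control 4 the highest. The means were 9.18 ± 1.34 CPM in knockouts and 11.0 ± 2.07 CPM in controls (SD, n = 4 each), with a log2 fold change of -0.26 (SE 0.18, 95% interval -0.63 to 0.10, edgeR adjusted p = 0.358). The predicted gene Gm28035, on the same strand, shares 66.2% of the exon bases of Lrrc8a but none of the last 500, and it had no read in any library.

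The partner subunit genes Lrrc8c (log2 fold change 0.07, SE 0.17) and Lrrc8d (0.47, SE 0.22) were not called, Lrrc8b had too few reads to test and Lrrc8e had 1 read in all. Clcn1, the chloride channel gene that sets the resting conductance of muscle, averaged 299.8 ± 15.3 CPM in knockouts and 307.2 ± 8.56 CPM in controls (SD, n = 4 each; log2 fold change -0.04, SE 0.08). Of the 5 tested genes of that list, which also holds Clcn3 and Ano6, 0 were called by edgeR, DESeq2 or limma, and 1, Lrrc8d, had an unadjusted p under 0.05.

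Nfat5 (ENSMUSG00000003847, GRCm38 chromosome 8, 107293470 to 107379517, plus strand) encodes the transcription factor of the tonicity response. It had 12.6, 15.1, 18.6 and 14.7 CPM in knockouts 1 to 4, against 16.4, 11.4, 13.5 and 15.8 CPM in controls 1 to 4. The groups overlapped over most of their range. The means were 15.2 ± 2.49 CPM in knockouts and 14.3 ± 2.29 CPM in controls (SD, n = 4 each), and the log2 fold change was 0.10 (SE 0.16, 95% interval -0.22 to 0.43, edgeR adjusted p = 0.719).

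Of the known NFAT5 targets in the set, Slc6a6 was lower, and Slc5a3 and Akr1b3 were not called. Of 8 other tested genes in the list of its regulators and targets 1 was higher and 0 lower. That is 12.5% called, against 15.7% of all tested genes, and the median log2 fold change was 0.20. Map2k3, a kinase that activates p38, averaged 240.4 ± 26.4 CPM in knockouts and 196.6 ± 19.0 CPM in controls (SD, n = 4 each; log2 fold change 0.29, SE 0.09, edgeR adjusted p = 0.0354), a call lost in 7 alternatives, DESeq2 among them, with adjusted p up to 0.180. Sgk1 (0.45, SE 0.17) and Hspa1a (0.27, SE 0.35), genes induced by hypertonic stress in other cells, were not called, nor was Hspa4l (-0.28, SE 0.27).

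Over all the lists, 98 genes other than the 8 and Gpcpd1 were looked up, 68 had enough reads to test, and 16 were called, 9 higher and 7 lower in the knockout. With library totals only, 7 were higher and 9 lower, and the number called ran from 12 to 20 over the alternatives. The 16 are 23.5% of those tested, against 15.7% of all genes, and the median log2 fold change of the 68 was 0.01. Because the lists were chosen with earlier results of these data known, the higher share cannot be read as an enrichment.

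The 8 genes differed in their spread between libraries of a genotype, a spread that includes counting error. In knockouts the coefficient of variation was lowest for Aqp1 (5.13%) and highest for Aqp4 (21.4%), and in controls it was lowest for Slc12a2 (8.32%) and highest for Slc5a3 (34.8%). The median over all tested genes, of any depth, was 13.6% in knockouts and 14.4% in controls. Counting error is larger at low counts: Aqp4 had 31 to 53 reads in knockouts, and Slc5a3 had 14 to 30 reads in controls. Aqp1 had 1303 to 1649 reads in knockouts, and Slc12a2 had 551 to 683 reads in controls. The part of read depth in this order was not tested. Among the controls, library 2 was the lowest for Slc6a6, Slc5a3 and Nfat5 alike, at -0.41, -0.47 and -0.30 on the log2 scale from the control mean. Knockout 3 was the highest knockout for Slc6a6 (0.18) and Nfat5 (0.29), and also for Aqp4 (0.36). Slc12a2 kept within 0.16 of its genotype mean on that scale in all 8 libraries.

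The genes whose deviations from the genotype means ran closest to each of the 8 over the 8 libraries were looked up among protein-coding genes of at least 10 CPM, as a description. For Slc12a2 they were Ndufv2 (Pearson r = 0.973), Ddx28 (0.959) and Cox7c (0.951). For Slc6a6 they were Clcc1 (0.988), Tnks (0.982) and Ppp1r15b (0.981), and for Aqp4 they were Tmf1 (0.974), Nudcd2 (0.942) and Palld (0.934). Aqp1 ran closest to Cd151 (0.968), Ubr4 (0.967) and BC052040 (0.955), and Lrrc8a to Slc25a33 (0.973), Rc3h2 (0.965) and Sdhaf1 (0.955). Slc5a3 ran closest to Kmt5b (0.992), Txnrd1 (0.989) and Pkn2 (0.970). The closest to Nfat5 were Capzb (0.988), Alkbh5 (0.977) and Setd7 (0.972), and to Akr1b3 Coro1c (0.968), Qsox1 (0.964) and Zfyve9 (0.960). Each is among the 3 highest of 6245 or 6246 coefficients, and all genes of a library share its depth and scaling.

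Slc6a6 and Slc12a2 are expressed in many cell types, so markers of the other cells in the sample were measured too. Macrophage markers had 2 of 7 tested genes called lower (28.6%, against 15.7% of all tested genes), C1qb (log2 fold change -0.83, SE 0.21) and Csf1r (-0.59, SE 0.19, lost in 7 alternatives). Of the 7 macrophage markers 0 were above 0, with a median log2 fold change of -0.40. The macrophage sum ran from 60.4 to 100.3 CPM in knockouts and from 79.7 to 135.7 CPM in controls, with a knockout mean at 75.3% of the control mean. Fibroblast markers had 1 of 7 called lower (14.3%), Dcn (-0.27, SE 0.09, lost in 4 alternatives), and 2 of 7 above 0, with a median of -0.06. Their sums were 453.1 to 550.9 CPM in knockouts and 514.0 to 626.9 CPM in controls. Smooth muscle and pericyte (8 tested), Schwann and nerve (5), adipocyte (5) and satellite cell (3) markers had 0 called by edgeR, DESeq2 or limma, 1 gene in all (Cspg4) had an unadjusted p under 0.05, and their sums overlapped. In each list the lowest p belonged to Cspg4 (log2 fold change 0.57, SE 0.20) and Myh11 (-0.23, SE 0.15) in smooth muscle and pericytes, to genes that include Mbp (0.23, SE 0.20) in Schwann cells, to Lep (-0.48, SE 0.36) and Cfd (-0.26, SE 0.20) in adipocytes, and to Chodl (0.18, SE 0.13) and Vcam1 (0.04, SE 0.21) in satellite cells. Of the 10 fibre genes Eno3 (0.40, SE 0.10) and Acta1 (0.26, SE 0.09, lost in 10 alternatives) were higher, and Myh4 was lower. The part of these cells in the levels of Slc6a6 and Slc12a2 was not tested.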

How the data were processed

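Quadriceps RNA was measured in 8 libraries of 3′ QuantSeq FWD reads. The deposited values are whole-number read counts, per the file headers, in a table of 54532 Ensembl genes for each library and without normalization; library totals were 4404116 to 5405999. Per the submitters' processing notes, Bowtie2 2.3.4.1, featureCounts and Subread 1.6.2 were used on GRCm38 (mm10). Which annotation release and strand setting the authors chose, and how multimapping reads were handled, is not given in the sources used here. Symbols and coordinates are from GENCODE M21, which matched 54495 IDs.

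Testing used edgeR 4.0.16 under R 4.3.3. Low genes were removed by filterByExpr (minimum count 10, minimum total 15), scaled by TMM and tested for genotype with the robust quasi-likelihood F test, and p-values were adjusted by Benjamini-Hochberg across the 10691 genes that remained (threshold 0.05). The SE was obtained from the fold change (log2) and the F statistic, and 95% intervals use the t distribution. The procedure was tested on simulated data. No pair of libraries agreed within sampling noise (chi-square per degree of freedom of at least 2.33). Alternatives were DESeq2 1.42.0, limma 3.58.1 voom, other scalings and filters, 1 surrogate variable (sva 3.50.0) and leaving out each library. Replicate numbers follow accession order and pair nothing.

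The 8 genes and the lists were chosen with earlier results of these data known. Besides the 8 genes, the text names up to 6 called genes of lowest p per list of related genes and up to 3 per marker list (the 2 of lowest p where none was called), and other genes as values only, chosen after their values were seen. Some genes of these lists enter the counts, medians and sums but are not reported here by name.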

Additional observations from a re-analysis of the deposited data

Results flagged for a closer look

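The values below lay far from the other 3 libraries of their genotype in 6 of 90 combinations of a gene and a genotype, and chance marks about 1 in 20 groups in this way. None of the 8 osmolyte and cell volume genes was among them. Wnk3 stood at 3.36 CPM in control 4, against 2.43 CPM in the nearest control. Atp1b2 stood at 87.9 CPM in control 3, against at least 98.4 CPM in the other controls, and Atp1b3 at 19.1 CPM in control 4, against at least 23.1 CPM in the other controls. Knockout 1 held the highest knockout value of 3 marker genes: Cfd at 21.2 CPM, Tnnt1 at 17.0 CPM and Atp2a2 at 24.5 CPM, against at most 4.65 CPM of Tnnt1 and 16.6 CPM of Atp2a2 in the other knockouts.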

How the results depend on the processing

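Aqp4, Slc12a2 and Gpcpd1 kept their direction and their call in all 17 alternatives. Slc6a6 kept its direction in all 17 and its call in 15, with a log2 fold change of -0.74 to -0.48 when 1 library was left out. Aqp1 was called with library totals only (-0.24) and with 1 surrogate variable (-0.21), and not in the other 15. Slc5a3, near 0, turned to 0.04 with limma voom and 0.07 with 1 surrogate variable and ran from -0.18 to 0.23 without 1 library, and Nfat5 ran from -0.01 to 0.18. Slc5a3 and Akr1b3 gave no value under the filter of at least 5 CPM in 4 libraries, because it removes them. The number of the 8 genes called was 2 to 4. The marker genes called, 6 by the test used in the report, were 10 with 1 surrogate variable and 3 to 10 without 1 library (3 without knockout 4 or control 3, 10 without control 2). Vcam1 ran from -0.01 to 0.09 and Atp2a2 from -0.31 to 0.02 without 1 library. The cause of these shifts was not tested. Over all genes 1307 to 2047 were called, and with library totals only 829 were higher and 901 lower, against 948 and 727 with TMM. No paired analysis was possible because the labels give no replicate numbers shared between the genotypes. Depth limits Aqp4, Slc5a3 and Akr1b3 most, which had 12 to 53 reads per library.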
